A study of Homo sapiens with 9 samples.

Results

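Mesothelial lineage markers are genes that normal mesothelium, the cell layer lining the pleura and other body cavities, keeps active and that pathologists use to recognise mesothelioma. The 10 genes described here are MSLN, CALB2, WT1, PDPN, UPK1B, UPK3B, LRRN4, BNC1, MUC16 and GPM6A. They were chosen by name with earlier results of these data known, so counts of called members are not those of a blind choice. Each matched 1 transcript cluster (the array's unit for a gene) among the 21448 that were tested. Expression was measured on 9 Clariom S arrays of ACC-MESO-1, an established human cell line labelled as mesothelioma. The groups were cells carrying shLSD1 #1 (3 arrays, replicates 4 to 6), cells carrying shLSD1 #2 (3 arrays, replicates 7 to 9) and cells carrying a control short hairpin RNA (3 arrays, replicates 1 to 3). Both shLSD1 hairpins are directed at LSD1, a lysine demethylase of histones, and all groups carry an shRNA. A single cell line without other cell types limits the groups as a model of a tumour. How and when the hairpins were introduced is not stated in the labels, and the extent of knockdown was not analysed here. The labels do not call the replicates separate cultures, so p-values measure the spread between arrays, which may be technical.

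Mesothelial cells descend from mesoderm yet form an epithelium-like sheet, and they carry both keratins and mesenchymal filaments. WT1 is a zinc finger transcription factor of the developing and adult mesothelium. Mesothelin (MSLN) is a surface glycoprotein that is anchored by a lipid, binds the mucin MUC16 on neighbouring cells, and is overexpressed in many epithelioid mesotheliomas. Calretinin (CALB2), WT1 and podoplanin (PDPN) are standard diagnostic stains, and sarcomatoid tumours often lose them.

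Signals are log2 values from RMA, a summary over the probes of a cluster. On each array a gene is called above the negative controls if its signal exceeds the 95th percentile of the 612 negative control probe sets. That percentile lay between 6.93 and 7.54. A gene below it may be transcribed at a low level, and the array then gives only a bound. By this measure MSLN alone was above the negative controls on all 9 arrays. A further 3 members were above them on some arrays (WT1, UPK3B and PDPN), and 6 on none (CALB2, UPK1B, LRRN4, BNC1, MUC16 and GPM6A). Over all 21448 clusters, 39.9% were above on every array and 51.9% on none. Of the standard stains named above, calretinin (CALB2) was thus above background on no array and podoplanin (PDPN) on 1 of 9. WT1 was above background on 6 of 9 arrays, and on 0 of 3 control arrays.

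**Figure D1:**
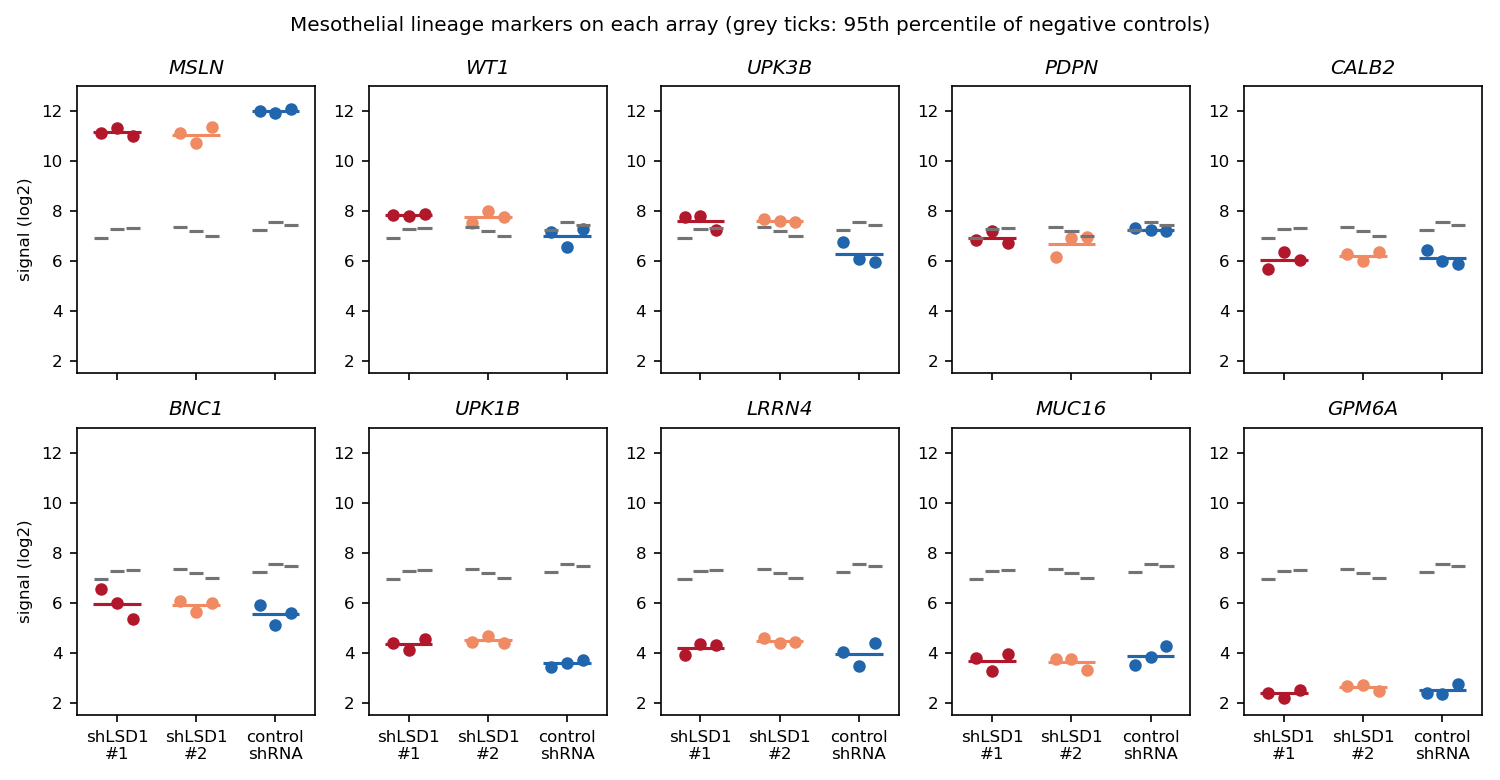
Log2 signal of the 10 members (vertical axis) on each array, by group (horizontal axis). Points are arrays, coloured bars are group means and grey ticks mark the 95th percentile of the negative controls of each array. MSLN lies far above the ticks everywhere and lower on all hairpin arrays, WT1 lies above them only on hairpin arrays, and the 6 members from CALB2 to GPM6A lie below them throughout.

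With either hairpin mesothelin fell, while WT1 and the uroplakin gene UPK3B were called higher. The limma test, adjusted over all clusters by the Benjamini-Hochberg method with a threshold of 0.05, called 4 of the 10 members with shLSD1 #1, where 15.8% of all clusters were called. It called the same 4 with shLSD1 #2, where 13.2% were called. These were MSLN, which was lower, and WT1, UPK3B and UPK1B, which were higher, and 10.4% of all clusters were called with both hairpins. Both contrasts use the same 3 control arrays. For 5 members, the 4 called and PDPN, all 6 hairpin arrays lay on 1 side of the 3 control arrays, which held for 22.8% of all clusters. For the hairpins taken singly this share of all clusters was 35.0% with shLSD1 #1 and 32.1% with shLSD1 #2. The median change of the 10 members was 0.07 with shLSD1 #1 and 0.24 with shLSD1 #2 on the log2 scale, against 0.03 and 0.02 over all clusters. That median includes the 6 members below the negative controls on every array, which have no measured level.

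WT1, UPK3B and UPK1B were called higher together and have a promoter window in the RefSeq table of GRCh38.p14, which held 7 of the 10 members but not MSLN, CALB2 or LRRN4. Their windows are printed for that reason, from 250 bases before to 50 bases after the annotated start. Capitals mark matches on either strand to GGGCGG (the GC box of SP and KLF factors), CACCTG (the E-box bound by SNAI and ZEB repressors), GGAATG (the TEAD site) and TGANTCA (the AP-1 site). The windows lie at chr11:32435490-32435789 (minus strand) for WT1, chr7:76510302-76510601 (plus strand) for UPK3B and chr3:119173348-119173647 (plus strand) for UPK1B.
WT1: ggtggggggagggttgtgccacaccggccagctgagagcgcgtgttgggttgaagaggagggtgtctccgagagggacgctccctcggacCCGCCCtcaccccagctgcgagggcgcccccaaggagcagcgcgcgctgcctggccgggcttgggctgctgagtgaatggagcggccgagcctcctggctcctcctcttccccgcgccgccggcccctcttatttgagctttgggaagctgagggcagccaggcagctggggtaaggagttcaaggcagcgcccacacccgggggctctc
UPK3B: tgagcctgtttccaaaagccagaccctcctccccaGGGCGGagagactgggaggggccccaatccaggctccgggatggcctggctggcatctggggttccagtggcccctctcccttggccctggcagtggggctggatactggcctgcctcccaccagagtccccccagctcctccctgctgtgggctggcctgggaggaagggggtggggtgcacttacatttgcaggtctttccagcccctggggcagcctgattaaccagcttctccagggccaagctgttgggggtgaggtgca
UPK1B: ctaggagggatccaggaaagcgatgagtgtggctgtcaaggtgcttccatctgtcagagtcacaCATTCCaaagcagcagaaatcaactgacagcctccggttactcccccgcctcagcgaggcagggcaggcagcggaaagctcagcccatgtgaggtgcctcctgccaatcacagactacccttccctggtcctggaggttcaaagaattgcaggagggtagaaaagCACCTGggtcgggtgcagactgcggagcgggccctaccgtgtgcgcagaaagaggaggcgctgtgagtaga
The WT1 window shown is the outermost of 4 annotated for that gene. It holds 1 GC box, 160 bases before the start, and the UPK3B window holds 1, at 215 bases before it. The UPK1B window has no GC box and holds 1 TEAD match, 186 bases before the start, and 1 E-box, 21 bases before it. No matches in these windows overlap one another. Of 35116 windows in the table, 44.9% hold the GC box, 20.6% the E-box, 14.0% the TEAD letters and 7.71% the AP-1 letters. G and C make up 70.0% of the WT1 window, 65.7% of the UPK3B window and 58.3% of the UPK1B window, against a median of 58.7% over all windows. Which motifs WT1 has in common with the others depends on the window: its innermost one holds 2 TEAD matches and 1 AP-1 match. Members that were not called hold some of the same motifs. The GC box is in windows of PDPN, BNC1 and MUC16, and the E-box and AP-1 letters are in windows of MUC16 and GPM6A. No window of PDPN, BNC1, MUC16 or GPM6A holds the TEAD letters. A link between any motif and the changes was not tested.

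Mesothelin was the one member with a bright signal. MSLN had signals of 11.13, 11.30 and 11.00 on the shLSD1 #1 arrays and 11.10, 10.70 and 11.34 on the shLSD1 #2 arrays, against 12.01, 11.91 and 12.06 on the control arrays. Every hairpin array lay below every control array, and the shLSD1 #2 arrays had the widest spread. The group means were 11.14 ± 0.15 with shLSD1 #1, 11.05 ± 0.32 with shLSD1 #2 and 11.99 ± 0.08 in control (SD, n = 3 each). MSLN fell by 0.85 ± 0.17 with shLSD1 #1 (SE, limma adjusted p = 0.00729), to 55.5% of the control level with a 95% interval of 43.0% to 71.8%. It fell by 0.95 ± 0.17 with shLSD1 #2 (SE, limma adjusted p = 0.00482), to 51.9% of control with an interval of 40.2% to 67.1%. The difference between the hairpins was 0.10, with an interval from -0.27 to 0.47. In such bulk RNA, fewer MSLN-positive cells and less MSLN RNA per cell cannot be told apart.

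The arrays also differ in the hybridization spike-ins, 4 probe sets for transcripts added to each sample. The mean of these lay between 10.8 and 10.9 on every shLSD1 #1 array and on replicate 8 of shLSD1 #2. It lay between 11.2 and 11.4 on replicates 7 and 9 of shLSD1 #2 and on every control array. MSLN was at 11.10 and 11.34 on the shLSD1 #2 arrays of high spike-in signal, at 10.70 on the shLSD1 #2 array of low spike-in signal, and at 11.91 to 12.06 on the control arrays, all of high spike-in signal. A fit with this class as a block gave an MSLN change of -0.33 with shLSD1 #1 (limma adjusted p = 0.573) and of -0.77 with shLSD1 #2 (limma adjusted p = 0.0124). Over all alternatives the MSLN adjusted p ran from 0.000105 to 0.573 with shLSD1 #1 and from 3.6e-05 to 0.0288 with shLSD1 #2. The block takes its class effect from the shLSD1 #2 arrays alone, so its shLSD1 #1 value rests on replicate 8. For shLSD1 #2 the block gives the same values as leaving out replicate 8. The shLSD1 #1 calls of WT1, UPK3B and UPK1B ended with the block too, at limma adjusted p of 0.561, 0.167 and 0.462, with differences in probe signal of 0.49 for WT1 and 1.36 for UPK3B. In that fit limma called 399 clusters with shLSD1 #1, and no member was among them. The part of the spike-in difference in these changes was not tested.

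WT1, the transcription factor, was above the negative controls on all 6 hairpin arrays and on none of the control arrays. The cutoffs ran from 7.22 to 7.54 on the control arrays and from 6.93 to 7.35 on the hairpin arrays. Control values of 7.17 and 7.27 exceed the cutoff of 6.93 on shLSD1 #1 replicate 4. WT1 exceeded 95.8% to 96.9% of the negative control probe sets on hairpin arrays and 90.4% to 94.6% on control arrays. By the 99th percentile, 9.22 or more on every array, WT1 was above on no array. Its signals were 7.84, 7.80 and 7.88 with shLSD1 #1 and 7.53, 7.98 and 7.74 with shLSD1 #2, against 7.17, 6.57 and 7.27 in control. The hairpin arrays lay close together and the control arrays were lower and more scattered, with no overlap. The means were 7.84 ± 0.04 with shLSD1 #1, 7.75 ± 0.23 with shLSD1 #2 and 7.001 ± 0.38 in control (SD, n = 3 each). The fitted differences in probe signal were 0.84 ± 0.19 with shLSD1 #1 and 0.75 ± 0.19 with shLSD1 #2 (SE, limma adjusted p = 0.0156 and 0.0304), with a control side not above background. With the control arrays raised to their own negative control values, mean WT1 was 1.35-fold higher with shLSD1 #1 and 1.27-fold with shLSD1 #2. On the log2 scale these bounds are 0.44 and 0.35, against an SE of 0.19. They rest on group means and have no interval, so they are not minimum changes. The shLSD1 #2 call ended without control replicate 2, the lowest of the 9 arrays (0.53, limma adjusted p = 0.0714), and without shLSD1 #2 replicate 8 (0.63, limma adjusted p = 0.107) or 9 (0.75, limma adjusted p = 0.0687). It also ended when only the shLSD1 #2 and control arrays were fitted, at limma adjusted p = 0.0697. Among the arrays of high spike-in signal, which also lack replicate 8, it ended at limma adjusted p = 0.190. For shLSD1 #2 the block gives the same fit as leaving out replicate 8, so it is not a separate check.

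The uroplakins are membrane proteins best known from the bladder's umbrella cells, and UPK3B is also made by mesothelium. UPK3B had signals of 7.77, 7.78 and 7.24 with shLSD1 #1 and 7.69, 7.59 and 7.56 with shLSD1 #2, against 6.75, 6.09 and 5.96 in control. UPK3B was above the negative controls on 2 of 3 shLSD1 #1 arrays and on 3 of 3 shLSD1 #2 arrays. It was above them on 0 of 3 control arrays. By the 99th percentile UPK3B was above on no array. The hairpin arrays did not overlap the control arrays. The means were 7.59 ± 0.31 with shLSD1 #1, 7.61 ± 0.07 with shLSD1 #2 and 6.27 ± 0.43 in control (SD, n = 3 each). The fitted differences in probe signal were 1.33 ± 0.22 with shLSD1 #1 and 1.34 ± 0.22 with shLSD1 #2 (SE, limma adjusted p = 0.00325 and 0.00341), with a control side not above background. As a bound, mean UPK3B was 1.14-fold higher with shLSD1 #1 and 1.15-fold higher with shLSD1 #2. These bounds are 0.19 and 0.21 on the log2 scale, against an SE of 0.22, and have no interval. The shLSD1 #1 mean includes replicate 6, which was below its own negative controls. Near copies of UPK3B are annotated on chromosome 7, and whether its probes also read them was not tested.

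UPK1B, a tetraspanin that pairs with a type III uroplakin, was called higher at a signal below the negative controls on all 9 arrays. Its signals were 4.37, 4.09 and 4.56 with shLSD1 #1 and 4.41, 4.67 and 4.38 with shLSD1 #2, against 3.44, 3.60 and 3.72 in control. All hairpin arrays lay above all control arrays, and the test passed with shLSD1 #1 and with shLSD1 #2 (limma adjusted p = 0.00872 and 0.00403). UPK1B exceeded between 55.6% and 70.3% of the negative control probe sets on the hairpin arrays, and between 32.2% and 40.0% on the control arrays. No size of change is given, because both sides are within the range of the negative controls. Of 3 other uroplakin genes on the array, UPK1A, UPK2 and UPK3A, none was called with either hairpin and none was above the negative controls on any array. For UPK2 all hairpin arrays also lay above all control arrays (limma adjusted p = 0.114 with shLSD1 #1 and 0.0851 with shLSD1 #2). Such a separation held in either direction for 22.8% of all clusters.

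**Figure D2:**
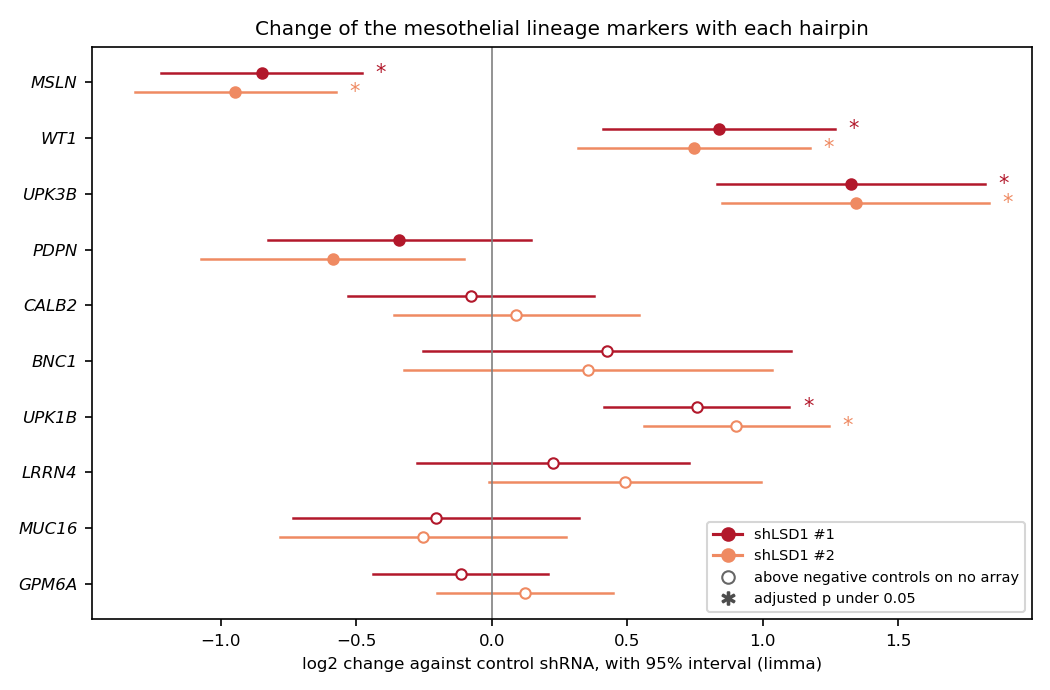
Fitted log2 change against control shRNA (horizontal axis) for the 10 members, with 95% intervals, for shLSD1 #1 and shLSD1 #2. Open points are members above the negative controls on no array, and stars mark an adjusted p under 0.05. MSLN lies left of 0 with both hairpins, WT1, UPK3B and UPK1B lie right of it, and the remaining 6 carry no star.

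Podoplanin sat at the edge of detection. PDPN, a mucin-type surface protein that links to the actin cortex through ezrin and its relatives, had signals of 6.82, 7.21 and 6.70 with shLSD1 #1 and 6.15, 6.90 and 6.95 with shLSD1 #2, against 7.30, 7.25 and 7.21 in control. Only control replicate 1 was above its negative controls. All hairpin arrays were below all control arrays, but the highest shLSD1 #1 array and the lowest control array both round to 7.21. The changes of -0.34 ± 0.22 with shLSD1 #1 and -0.59 ± 0.22 with shLSD1 #2 did not pass (SE, limma adjusted p = 0.340 and 0.117).

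The remaining 5 members were below the negative controls on every array and were called with neither hairpin. CALB2, which encodes the calcium-binding protein calretinin, averaged 6.03 ± 0.34 with shLSD1 #1, 6.20 ± 0.18 with shLSD1 #2 and 6.11 ± 0.29 in control (SD, n = 3 each). It exceeded 86.3% to 92.0% of the negative control probe sets, and its groups overlapped. BNC1, a zinc finger protein of basal keratinocytes, germ cells and mesothelium, averaged 5.96 ± 0.61 with shLSD1 #1, 5.89 ± 0.23 with shLSD1 #2 and 5.53 ± 0.41 in control, and the groups overlapped. LRRN4, a leucine-rich repeat membrane protein, averaged 4.19 ± 0.23 with shLSD1 #1, 4.45 ± 0.12 with shLSD1 #2 and 3.96 ± 0.48 in control. Its arrays overlapped between the groups too. MUC16, the mucin partner of mesothelin, averaged 3.65 ± 0.36 with shLSD1 #1, 3.61 ± 0.25 with shLSD1 #2 and 3.86 ± 0.37 in control. GPM6A, a membrane glycoprotein also abundant in neurons, averaged 2.37 ± 0.16 with shLSD1 #1, 2.61 ± 0.11 with shLSD1 #2 and 2.49 ± 0.22 in control. GPM6A exceeded between 3.1% and 13.6% of the negative control probe sets, so for these genes the array sets only an upper limit.

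No member was called between the hairpins. limma called 0 of 21448 clusters (0.00%) for shLSD1 #1 minus shLSD1 #2, 1687 had an unadjusted p under 0.05, and a trended robust prior called 42. Among the 10 members the smallest unadjusted p was 0.133, the largest difference was 0.27 on the log2 scale, and the intervals reached from -0.77 to 0.75. Differences of up to about that size between the hairpins are not shown to be absent.

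**Figure D3:**
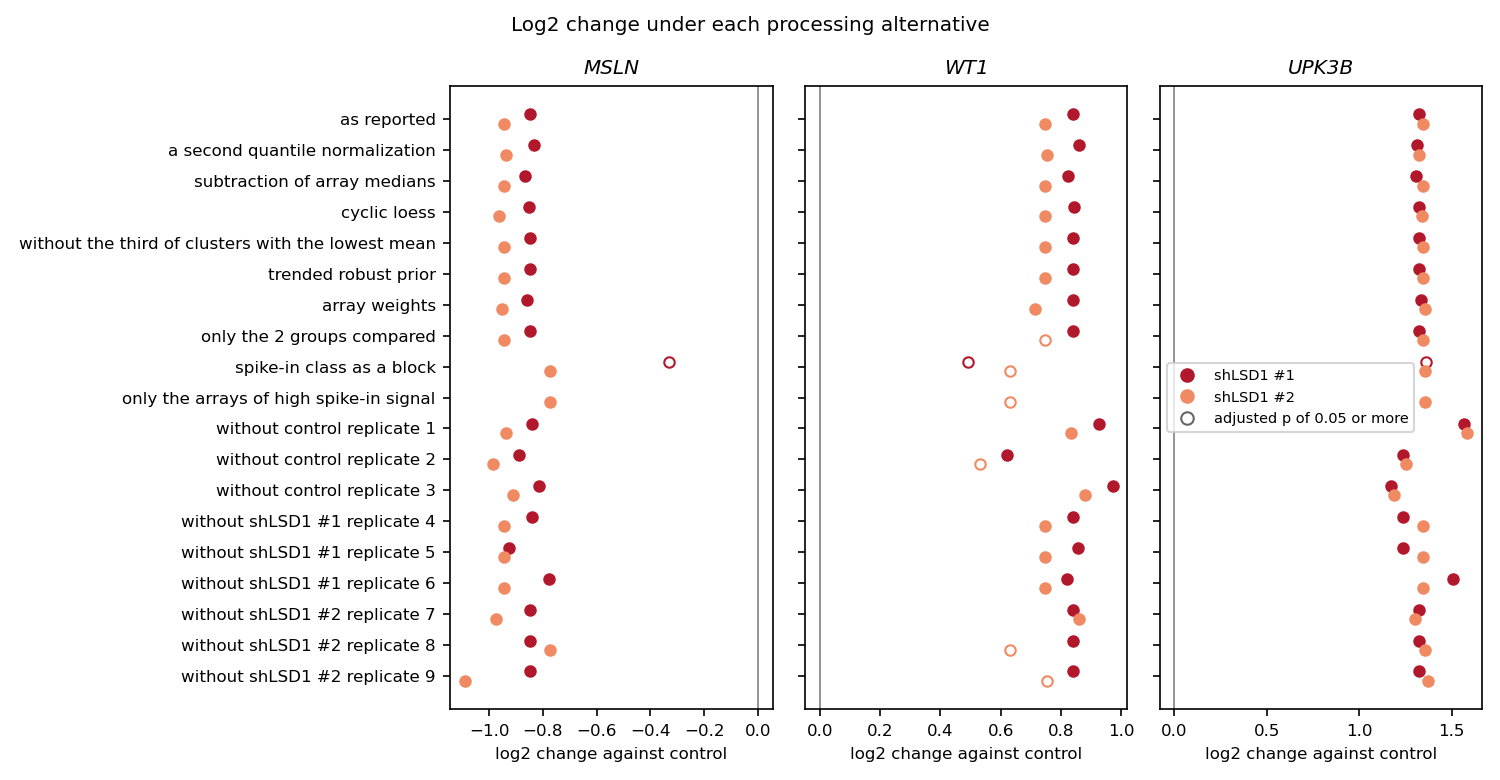
Log2 change against control (horizontal axis) of MSLN, WT1 and UPK3B for each way of processing (vertical axis), for shLSD1 #1 and shLSD1 #2. Filled points have an adjusted p under 0.05 and open points do not. UPK3B stays between 1.17 and 1.59 throughout, while the MSLN change with shLSD1 #1 is -0.33 when spike-in class is a block, against -0.85 as reported.

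Across the 9 arrays, MSLN was compared with the 7573 other named clusters above the negative controls on every array, by the root mean square difference of signals after subtraction of the control mean. The 3 closest were SDC3, a heparan sulphate proteoglycan of the cell surface (0.101), MKNK2, a kinase that phosphorylates the translation factor eIF4E (0.104), and CDC27, a subunit of the anaphase-promoting complex (0.117). The median over all candidates was 0.773. With shLSD1 #1 the changes were -0.81 for SDC3, -0.90 for MKNK2 and -0.86 for CDC27, and with shLSD1 #2 they were -1.04, -0.99 and -0.82.

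A list of 15 partners holds genes whose proteins cleave or bind the members together with target genes of WT1, and 12 of the 15 were above the negative controls on all 9 arrays. Of these 15 genes, 4 were higher and 3 lower with shLSD1 #1, and 2 were higher and 3 lower with shLSD1 #2, where 7.85% and 6.56% of all clusters were higher and 7.94% and 6.63% lower. Their median changes were -0.03 with each hairpin. ADAM17, a protease that sheds mesothelin, fell by 0.50 ± 0.11 with shLSD1 #1 and by 0.39 ± 0.11 with shLSD1 #2 (SE, limma adjusted p = 0.0120 and 0.0427). Its shLSD1 #2 call ended in 11 of 18 alternatives. That tally counts both the block and the fit without replicate 8, which give the same values for shLSD1 #2. With the block the shLSD1 #1 calls of ADAM17, RDX, MSN and PODXL ended, with changes of -0.34, 1.03, -0.40 and -0.47 (limma adjusted p = 0.463, 0.0518, 0.358 and 0.291). The shLSD1 #2 call of MSN ended among the arrays of high spike-in signal, at limma adjusted p = 0.0627.

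Podoplanin's cytoskeletal partners differed in direction. RDX, radixin, had signals of 12.69, 12.66 and 12.53 with shLSD1 #1 and 12.62, 12.74 and 12.84 with shLSD1 #2, against 11.68, 11.55 and 11.54 in control, and rose by 1.04 ± 0.11 with shLSD1 #1 and by 1.14 ± 0.11 with shLSD1 #2 (SE, limma adjusted p = 0.000284 and 0.000162). MSN, moesin, fell by 0.57 with each hairpin (SE 0.11, limma adjusted p = 0.00558 and 0.00648), and EZR, ezrin, had changes of 0.14 with shLSD1 #1 and 0.06 with shLSD1 #2 that did not pass. CD44, a hyaluronan receptor that binds podoplanin, had -0.04 with shLSD1 #1 and -0.06 with shLSD1 #2 and did not pass. PODXL, a sialomucin whose gene WT1 activates in kidney podocytes, fell by 0.59 with shLSD1 #1 and fell by 0.79 with shLSD1 #2 (limma adjusted p = 0.00451 and 0.00101). AMHR2, a hormone receptor whose gene WT1 activates in the gonad, was called higher with both hairpins at a signal below the negative controls on every array. Its shLSD1 #1 call ended in 5 of 16 alternatives, with the block at limma adjusted p = 0.314 and without control replicate 1 or 3 at 0.0694 and 0.0760. The other 2 partners that were higher with shLSD1 #1 were the tetraspanin CD9 and the signalling inhibitor SPRY1. Both were named after their values were known. CD9 had 0.48 with shLSD1 #1 and 0.36 with shLSD1 #2 (limma adjusted p = 0.0284 and 0.0906). SPRY1 had differences in probe signal of 0.64 and 0.48 (limma adjusted p = 0.0409 and 0.126). SPRY1 was above the negative controls on 1 of 3 shLSD1 #1 arrays, 1 of 3 shLSD1 #2 arrays and 0 of 3 control arrays.

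Among 25 further mesothelial genes, 9 were above the negative controls on all arrays and 14 on none, and 3 were called with both hairpins, a share near the 10.4% of all clusters called with both. HEG1 is a mucin-like membrane protein whose sialylated form is a mesothelioma antigen. HEG1 had signals of 7.22, 7.68 and 7.48 with shLSD1 #1 and 7.46, 7.28 and 7.32 with shLSD1 #2, against 10.18, 9.90 and 9.94 in control. The hairpin arrays lay just above their negative controls and far below the control arrays, and HEG1 fell by 2.55 ± 0.14 with shLSD1 #1 and fell by 2.65 ± 0.14 with shLSD1 #2 (SE, limma adjusted p = 6e-06 and 4.4e-06). EFEMP1, the matrix protein fibulin-3 that has been studied as a blood marker of mesothelioma, had 11.58, 12.11 and 11.57 with shLSD1 #1 and 11.95, 12.18 and 12.20 with shLSD1 #2, against 13.30, 13.47 and 13.32 in control. It fell by 1.61 ± 0.16 with shLSD1 #1 and fell by 1.25 ± 0.16 with shLSD1 #2 (SE, limma adjusted p = 0.000187 and 0.000864). Both genes stayed past the threshold under every alternative run.

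BCHE, the esterase butyrylcholinesterase, rose by 0.73 ± 0.14 with shLSD1 #1 and by 1.02 ± 0.14 with shLSD1 #2 (SE, limma adjusted p = 0.00721 and 0.00135). It was above the negative controls on all hairpin arrays and on 2 of 3 control arrays. With the block its shLSD1 #1 call ended, at a change of 0.79 (limma adjusted p = 0.208). In all, 2 of the 25 were higher and 2 lower with shLSD1 #1, where 15.8% of all clusters were called, and 1 was higher and 2 lower with shLSD1 #2, where 13.2% were called. These shares are near the background. The second gene that was higher with shLSD1 #1 was CPA4, a carboxypeptidase, at 0.82, which had 0.35 with shLSD1 #2 (limma adjusted p = 0.000848 and 0.0591) and was picked with its values known. With the block CPA4 had 0.84 with shLSD1 #1 (limma adjusted p = 0.0878). The median changes of the 25 were 0.11 and 0.03.

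The mesodermal transcription factors GATA4 and TBX18 and the simple-epithelium keratins KRT7, KRT8 and KRT18 were above the negative controls on all arrays. None of these was called with either hairpin. For TBX18, KRT8 and KRT18 all hairpin arrays lay below all control arrays, a separation that held in either direction for 22.8% of all clusters. Other genes of these kinds were not present throughout. The transcription factors GATA6 and TCF21 were above the negative controls on no array, and the keratin KRT19 on 1 of 9. KRT5, a keratin used as a mesothelioma stain, THBD, thrombomodulin, and CLDN15, a mesothelial claudin, were above them on no array and were not called. CLDN15 passed with shLSD1 #1 in 3 of 17 alternatives, at limma adjusted p of 0.0327 without the dimmest clusters, 0.0456 with array weights and 0.0358 without shLSD1 #1 replicate 6.

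**Figure D4:**
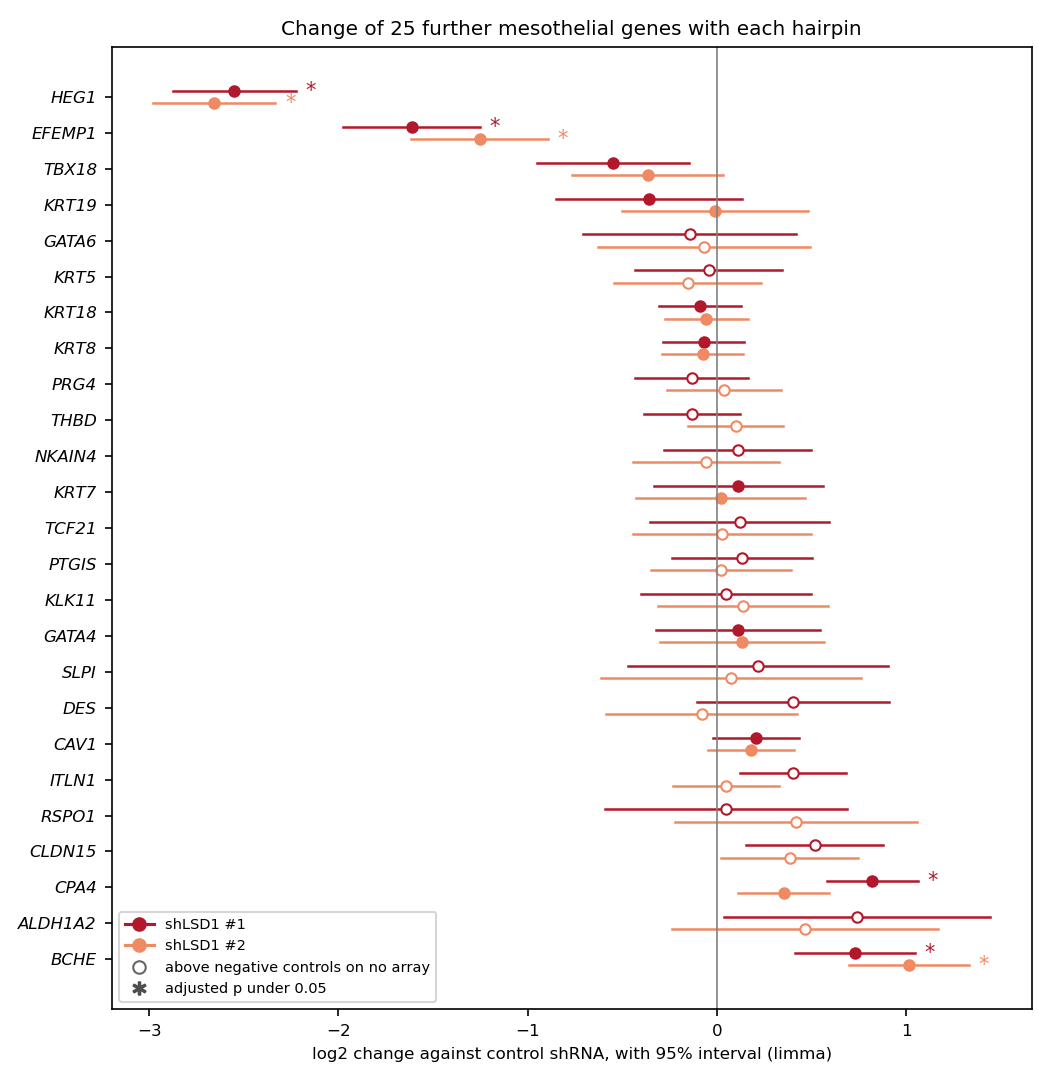
Fitted log2 change against control shRNA (horizontal axis) with 95% intervals for 25 further mesothelial genes, for shLSD1 #1 and shLSD1 #2. Open points are genes above the negative controls on no array and stars mark an adjusted p under 0.05. HEG1 and EFEMP1 lie far to the left, and BCHE is starred on the right with both hairpins.

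Relatives of the members were mostly not measured, with 12 of 14 above the negative controls on no array. MUC1, a cell surface mucin, fell by 1.26 ± 0.13 with shLSD1 #1 and fell by 1.73 ± 0.13 with shLSD1 #2 (SE, limma adjusted p = 0.000189 and 3.03e-05). With the block its shLSD1 #1 call ended, at a change of -1.12 (limma adjusted p = 0.0547). BNC2, the relative of BNC1, was called higher with both at signals below the negative controls. Its shLSD1 #1 call ended in 8 of 17 alternatives, at limma adjusted p of up to 0.349, and its shLSD1 #2 call in 3 of 18, at up to 0.0820. Without control replicate 3 both calls ended, at limma adjusted p of 0.103 and 0.0637. CALB1, calbindin, was called lower with shLSD1 #2 (-1.07, limma adjusted p = 0.00632) and had -0.61 with shLSD1 #1 (limma adjusted p = 0.0660). It was picked with its values known, and its alternatives were not examined. In all, 1 relative was higher and 1 lower with shLSD1 #1, and 1 was higher and 2 lower with shLSD1 #2, where 15.8% and 13.2% of all clusters were called. The medians were 0.10 and 0.10.

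Markers that pathologists use for carcinoma rather than mesothelioma were also read. Of 12 on the array, 9 were above the negative controls on none, among them EPCAM, the lung factor NKX2-1 and the lung protease NAPSA. Of the 12, 0 were higher and 2 lower with shLSD1 #1, and 0 were higher and 3 lower with shLSD1 #2, where 7.94% and 6.63% of all clusters were lower, with medians of -0.07 and -0.19. At an unadjusted p under 0.05 in limma, 1 was higher and 2 lower with shLSD1 #1, and 1 was higher and 4 lower with shLSD1 #2. Over all 21448 clusters 6232 and 5582 passed it in either direction. CLDN4, a claudin of carcinomas, had signals of 8.70, 8.19 and 8.47 with shLSD1 #1 and 7.86, 8.01 and 8.23 with shLSD1 #2, against 9.06, 9.16 and 9.32 in control. It fell by 0.73 ± 0.16 with shLSD1 #1 and fell by 1.15 ± 0.16 with shLSD1 #2 (SE, limma adjusted p = 0.0130 and 0.00130). CEACAM5, a carcinoembryonic adhesion protein, fell by 1.38 with shLSD1 #1 and fell by 1.76 with shLSD1 #2 (limma adjusted p = 0.00722 and 0.00235). It was above the negative controls on 2 of 3 shLSD1 #1 arrays, 1 of 3 shLSD1 #2 arrays and 3 of 3 control arrays. CEACAM6, its relative, was lower with shLSD1 #2 (-0.76, limma adjusted p = 0.0406) and had -0.32 with shLSD1 #1 (limma adjusted p = 0.352), and was picked with its values known. With the block the shLSD1 #1 calls of CLDN4 and CEACAM5 ended, at changes of -0.68 and -1.72 (limma adjusted p = 0.336 and 0.139), and that of CLDN4 also without control replicate 3 (-0.66, limma adjusted p = 0.0510). The summed signal of the 12 ran from 61.2 to 62.1 on the shLSD1 #1 arrays, 58.5 to 61.5 on the shLSD1 #2 arrays and 62.7 to 63.6 on the control arrays, and its part in the change of MSLN was not tested.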

How the data were processed

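Per the submitters' processing notes, the authors summarised the arrays by RMA in Affymetrix Expression Console 1.4. The deposited values are log2 signals per probe set for 9 arrays. The log base was taken as 2, as RMA gives it. The genome build, library files and options: not given in the sources used here. Per the labels, 100 ng of total RNA was labelled with biotin. Each array held 24351 values. A total of 2903 control probe sets were set aside, and all 21448 clusters were tested. Names came from GEO's platform annotation: 17709 clusters had 1 symbol, 0 had several and 3739 had none. The cluster of highest mean stood for a gene with several.

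The test was limma 3.58.1 in R 4.3.3 (lmFit, eBayes), in 1 fit of the 3 groups, two-sided, with Benjamini-Hochberg adjustment over all clusters. Changes are hairpin minus control. The fit was tested on simulated data of known answers. Promoter windows came from the RefSeq table of GRCh38.p14. Where all arrays of a group lay below the negative controls, the fold is a bound against the mean of that group's 95th percentiles. Such a bound is a point value without an interval. Precision is limited by how many arrays there are.

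The members and lists were chosen with earlier results of these data known. Named were all members, up to 6 genes per list called with both hairpins, 8 genes in any case (KRT5, THBD, CLDN15, HEG1, ADAM17, CD44, EPCAM and CLDN4) and the 3 genes most like MSLN. Any other list gene in the text was picked with its values known. Alternatives were other normalizations, a filter on dim clusters, other priors, array weights, fewer groups, the spike-in class, and each array left out. Plots used matplotlib 3.10.9.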

Additional observations from a re-analysis of the deposited data

How the results depend on the processing

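No paired analysis was possible because the groups share no replicate numbers. The calls of the members with shLSD1 #1 depend on how the spike-in class is treated: with it as a block 399 clusters were called against 3385, and 0 members were higher and 0 lower. Every shLSD1 #1 array was of low spike-in signal and every control array of high, so the class effect rests on replicate 8 of shLSD1 #2. The block also widened the SE of the shLSD1 #1 changes. It went from 0.17 to 0.23 for MSLN, from 0.19 to 0.33 for WT1 and from 0.22 to 0.42 for UPK3B. With shLSD1 #2, 1450 clusters were called among the arrays of high spike-in signal, against 2827. For shLSD1 #1 minus shLSD1 #2 the trended robust prior called 42 clusters against 0. Leaving out each array gave 2375 to 3275 calls with shLSD1 #1, 1918 to 2710 with shLSD1 #2 and 0 to 0 between hairpins. Members above the negative controls on all arrays of a group numbered 2 with shLSD1 #1, 3 with shLSD1 #2 and 1 in control. With the 99th percentile they numbered 1, 1 and 1.

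The changes that turned sign belonged to comparisons in which that gene was not called. With the block, CALB2 with shLSD1 #1 had 0.23, EPCAM with shLSD1 #1 -0.14, and the difference between hairpins was -0.14 for WT1 and 0.0053 for UPK3B. KRT5 with shLSD1 #1 had 0.011 with array weights. Leaving out each array gave -0.25 to 0.0917 for CALB2, -0.0297 to 0.44 for LRRN4, -0.19 to 0.012 for GPM6A, -0.24 to 0.0777 for KRT5 and -0.13 to 0.0214 for CD44 with shLSD1 #1. It gave -0.0154 to 0.25 for CALB2 with shLSD1 #2. Between hairpins it gave -0.0748 to 0.24 for MSLN, -0.0195 to 0.21 for WT1 and -0.11 to 0.16 for UPK3B. The filter on dim clusters left UPK1B, LRRN4, MUC16 and GPM6A untested. The cause of these shifts was not tested. The 6 members below the negative controls on all arrays have no measured level, and the arrays limit what can be said of them.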

Other observations

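Genes of stromal cells, read as markers of another cell type, moved in both directions with both hairpins. LUM, the collagen-binding proteoglycan lumican, averaged 9.58 ± 0.27 with shLSD1 #1 and 9.60 ± 0.13 with shLSD1 #2, against 7.39 ± 0.31 in control, where 1 of 3 arrays was above the negative controls (SD, n = 3 each). POSTN, the matrix protein periostin, rose by 1.68 ± 0.11 with shLSD1 #1 and by 1.61 ± 0.11 with shLSD1 #2 (SE, limma adjusted p = 2.01e-05 and 2.32e-05). THY1, a surface protein of fibroblasts and other cells, fell by 1.68 ± 0.12 with shLSD1 #1 and fell by 1.64 ± 0.12 with shLSD1 #2 (SE, limma adjusted p = 2.67e-05 and 2.88e-05). FAP, a protease of activated fibroblasts, fell by 2.00 ± 0.21 with shLSD1 #1 and fell by 2.01 ± 0.21 with shLSD1 #2 (SE, limma adjusted p = 0.00026 and 0.000261). FAP was above the negative controls on 1 of 3 shLSD1 #1 arrays, 1 of 3 shLSD1 #2 arrays and 3 of 3 control arrays. Of 8 stromal genes, 2 were higher and 2 lower with each hairpin, where 15.8% of all clusters were called with shLSD1 #1 and 13.2% with shLSD1 #2, and the medians were 0.20 and 0.30. DCN, PDGFRA and COL1A1 were above the negative controls on no array. PDGFRB was above them on all arrays. Its changes of 0.24 with shLSD1 #1 and 0.18 with shLSD1 #2 did not pass (limma adjusted p = 0.349 and 0.532).

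Endothelial markers were above the negative controls on no array, 0 of 6, and 0 were called with either hairpin by limma at the adjusted threshold, with medians of 0.26 and 0.08. At an unadjusted p under 0.05, 1 of the 6 passed with shLSD1 #1 and 0 with shLSD1 #2. Over all 21448 clusters 6232 and 5582 passed it. At the adjusted threshold 15.8% and 13.2% of all clusters were called. Of 5 leukocyte markers, PTPRC, CD3E, ITGAM and LYZ were above the negative controls on no array. CD68, a lysosomal membrane protein that many cultured cells also make, was above them on all arrays and fell by 1.11 ± 0.14 with shLSD1 #1 and fell by 1.35 ± 0.14 with shLSD1 #2 (SE, limma adjusted p = 0.000649 and 0.000218). The median change of the 5 was -0.11 and -0.13.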
